A study of Homo sapiens with 8 samples.

Results

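A set of 10 imprinted genes was examined for open chromatin in lines that differ in the histone methyltransferase EZH2: *IGF2*, *H19*, *KCNQ1OT1*, *DLK1*, *MEG3*, *PEG10*, *PEG3*, *MEST*, *SNRPN* and *GNAS*. They are 10 of 38726 protein-coding and long non-coding RNA (lncRNA) genes of the GENCODE 44 annotation of GRCh38/hg38, and were chosen by name as coding and non-coding genes known to be imprinted. For each gene, every ATAC-Seq peak in the gene body or within 5 kb of one of its transcription start sites was taken from each library. The peaks of the 8 libraries were merged wherever they shared at least 1 bp, which gave 20 regions at these genes of 101836 regions in all.

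An imprinted gene is expressed mainly from the copy inherited from one parent. The choice is held by DNA methylation that is set in the germ line at an imprinting control region and kept in the body by factors such as ZFP57, ZNF445 and TRIM28, while CTCF reads the unmethylated copy at several of these regions. EZH2 is the catalytic subunit of Polycomb repressive complex 2, which places the repressive mark H3K27me3, and this mark is found on the silent copy of several imprinted genes. An ATAC-Seq peak does not say which parental copy is open.

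ATAC-Seq marks open chromatin by cutting it with the Tn5 transposase. All libraries come from HEK293T, a human embryonic kidney cell line whose own EZH2 is not mutated, infected with lentivirus that carries EZH2 and selected with blasticidin. The virus brought in EZH2 WT in 1 of the 4 stable lines and a mutant EZH2 in the other 3. The mutants Y641F and A677G are gain-of-function (GOF) forms and the double mutant H689A/F667I is a loss-of-function (LOF) form, according to the study. Each line has 2 libraries described as biological replicates. Each line is described as a monoclonal population, so the effect of a mutant and the history of its line cannot be told apart, and p-values measure only the spread between these libraries. Peak lists cannot show the introduced EZH2 or its mutation, so the labels were not checked against it. The promoters of the kidney progenitor factors *PAX2*, *LHX1*, *EYA1* and *SALL1* were open in all 8 libraries. Those of *PTPRC* (blood) and *ALB* (liver) were closed in all 8, whereas that of *MYOD1* (muscle) was open in all 8.

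The lists differed in size, from 26350 and 36598 peaks in Y641F and 38016 and 46358 in A677G to 62514 and 64923 in WT, with H689A/F667I between them (47840 and 48755). The read depth is unknown. The number of peaks therefore moved with the line in every count below, and results are therefore also given with the same number of peaks in each library or with covered length as a share of all bp under peaks.

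The stretches of sequence shown here lie where the largest number of libraries had a peak in the regions on which the results turn, outside untranslated exons, and are written 5′ to 3′ on the strand of the named gene. They were searched on both strands for the CTCF core GGNGGCAG, the YY1 core GCCATNTT and the ZFP57 site TGCCGC, and matches are in capitals. The first, at chr7:94655945-94656094 on the plus strand, lies in the promoter that *PEG10* shares with *SGCE*, under a peak in 7 libraries. The second, at chr11:2156505-2156704 on the minus strand, is the intronic stretch of *IGF2* that was open in 4 libraries. The third, at chr14:100851225-100851424 on the plus strand, lies near the end of *MEG3* in the region that was lost in Y641F. The others lie in *GNAS* on the plus strand, at chr20:58850841-58851040 beside the start of *GNAS-AS1*, at chr20:58870330-58870479 in the intronic region that was lost in Y641F, and at chr20:58890804-58891003 in a promoter region that was missing only from Y641F replicate 1.
PEG10: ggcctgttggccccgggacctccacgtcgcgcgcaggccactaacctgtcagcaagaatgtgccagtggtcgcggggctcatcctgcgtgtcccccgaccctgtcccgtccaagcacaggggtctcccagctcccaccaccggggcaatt
IGF2: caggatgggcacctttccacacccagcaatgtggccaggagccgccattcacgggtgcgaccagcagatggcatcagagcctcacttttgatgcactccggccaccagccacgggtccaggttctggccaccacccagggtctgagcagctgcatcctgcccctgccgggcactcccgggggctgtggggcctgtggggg
MEG3: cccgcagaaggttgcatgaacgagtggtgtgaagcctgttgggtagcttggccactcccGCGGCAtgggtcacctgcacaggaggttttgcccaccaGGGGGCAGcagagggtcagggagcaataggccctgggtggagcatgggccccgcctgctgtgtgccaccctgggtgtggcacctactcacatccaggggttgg
GNAS beside GNAS-AS1: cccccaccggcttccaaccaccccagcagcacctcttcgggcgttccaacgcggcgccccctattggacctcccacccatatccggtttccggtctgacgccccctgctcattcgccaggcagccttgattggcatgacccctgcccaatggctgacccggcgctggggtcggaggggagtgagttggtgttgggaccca
GNAS intron: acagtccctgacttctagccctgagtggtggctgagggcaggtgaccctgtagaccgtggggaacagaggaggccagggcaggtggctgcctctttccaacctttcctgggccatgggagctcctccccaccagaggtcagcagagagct
GNAS promoter: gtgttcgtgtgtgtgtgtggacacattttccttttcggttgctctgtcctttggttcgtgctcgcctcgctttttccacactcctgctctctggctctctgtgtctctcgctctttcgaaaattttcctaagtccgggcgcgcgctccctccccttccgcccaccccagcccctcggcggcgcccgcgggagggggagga

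The *MEG3* stretch held a CTCF core and a ZFP57 site, apart from each other. The other 5 stretches shown held none of the 3 motifs, which says only that these letters are not in these windows. Not every region at these genes is shown, and a ZFP57 site was also present in the *GNAS* region chr20:58883388-58883685, which was open in 1 library, so that the motif matches do not set *MEG3* apart. Among 101834 regions of the genome, the 200 bases at the centre held the CTCF core in 11.0%, the ZFP57 site in 6.01% and the YY1 core in 3.30%. For 150 bases, the length shown for *PEG10* and the *GNAS* intron, these shares were 8.43%, 4.62% and 2.45%. The *GNAS* promoter stretch held 17 CpG dinucleotides, against a median of 3 per 200 bases over all regions. The *GNAS* intron stretch held 1 CpG, against a median of 2 per 150 bases.

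At least 1 peak was listed at 6 of the 10 genes, and 4 had none in any library. Peaks were listed at *GNAS* (10 regions), *IGF2* (4), *MEG3* (3), *KCNQ1OT1* (1), *PEG10* (1) and *MEST* (1). Each WT library had 15 peaks at these genes. The Y641F lists had 4 and 10, those of A677G 9 and 12, and those of H689A/F667I 10 and 8. Of the 20 regions, 7 were open in a single library and 3 were open in all 8. A region is called open in a library when it holds a peak there, and closed means that no peak is listed, not that there is no signal.

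**Figure D1:**
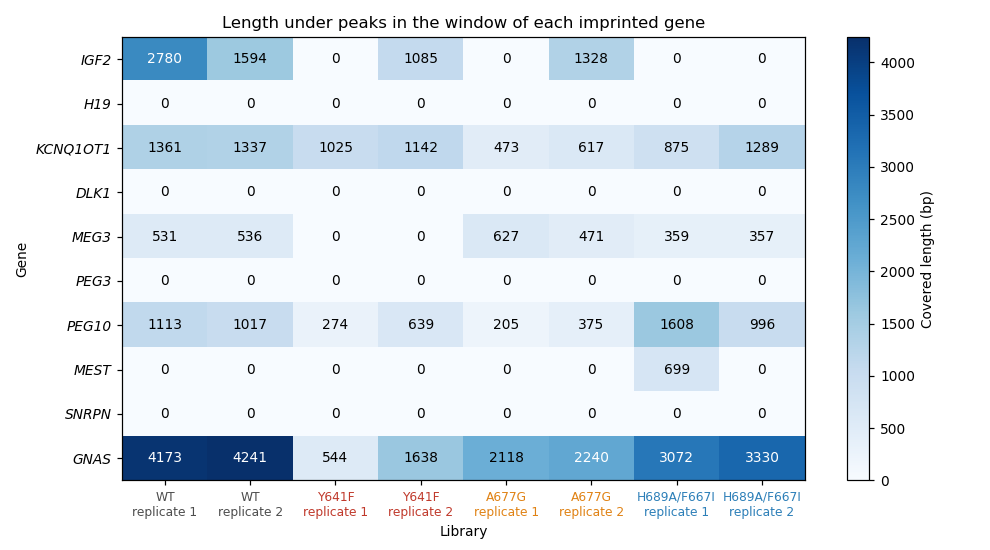
Length in bp under peaks in the window of each gene (rows) in each library (columns), with the value in each cell. *H19*, *DLK1*, *PEG3* and *SNRPN* are at 0 in all 8 libraries, and *GNAS* runs from 4241 bp in WT replicate 2 down to 544 bp in Y641F replicate 1.

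No peak was listed at *H19*, *DLK1*, *PEG3* and *SNRPN*. *H19* makes a maternally expressed lncRNA, *DLK1* a paternally expressed Notch-related membrane protein, *PEG3* a paternally expressed zinc-finger protein, and *SNRPN* a splicing protein of the Prader-Willi locus that is expressed from the paternal copy. The stretch of chromosome 15 around *SNRPN* that was without a peak in all 8 libraries measured 1.55 Mb, and 27 of 101813 stretches between neighbouring regions were at least as long. The stretch around *PEG3* measured 575 kb, and 232 stretches were at least as long. The stretches around *H19* (126 kb) and *DLK1* (26.7 kb) were less rare, with 3169 and 26363 at least as long. Over all genes, 11.8% of the windows of protein-coding genes and 35.5% of those of lncRNA genes held no peak in any of the 8 libraries. Among the 10 imprinted genes, peaks were listed at the lncRNA genes *KCNQ1OT1* and *MEG3* and the protein-coding genes *IGF2*, *PEG10*, *MEST* and *GNAS*. The 4 without a peak were the lncRNA gene *H19* and the protein-coding genes *DLK1*, *PEG3* and *SNRPN*. Since these genes were at 0 in WT as in the mutants, they give no comparison between lines.

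Regions were then compared between each mutant and WT. Lost regions had a peak in each WT library but in no library of the mutant, gained regions the reverse, and retained regions had a peak in all 4. Of the 20 regions, 13 were open in both WT libraries. Y641F lost 3 of these 13, beside 35.3% of the 48615 such regions of the genome. A677G lost 1, beside 20.8%, and H689A/F667I lost 4, beside 14.2%. No region was gained in any mutant, where over the genome Y641F gained 1.11%, A677G 1.65% and H689A/F667I 2.83% of the 23877 regions closed in both WT libraries, of which 3 lay at the imprinted genes. Y641F retained 4 of the 13 regions, A677G 7 and H689A/F667I 8, beside 41.8%, 59.0% and 68.0% over the genome. With 2 libraries against 2 there are 6 assignments and an exact permutation p cannot fall under 0.33, so these counts carry no test.

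**Figure D2:**
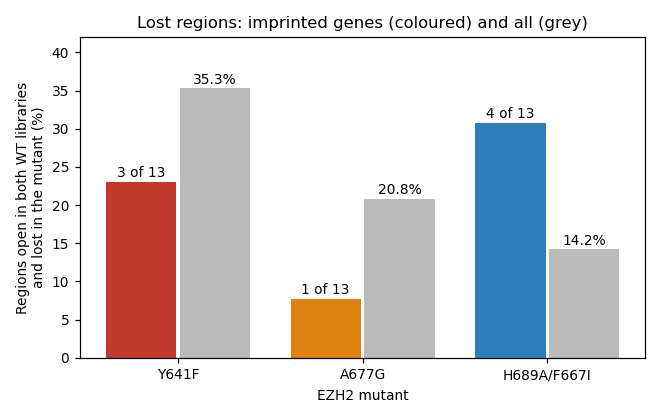
Percentage of regions open in both WT libraries that were lost in each EZH2 mutant, for the 13 regions at the imprinted genes (coloured bars, with their number) and for all 48615 regions (grey bars). The coloured bar is below the grey one for Y641F (3 regions) and A677G (1 region) and above it for H689A/F667I (4 regions), an order that turned for Y641F (9 regions) and A677G (6 regions) without replicate 2 of each.

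The counts of lost regions are small and depend on single libraries and on how many peaks each list holds. Without Y641F replicate 2, 9 of the 13 regions were lost in Y641F, beside 54.8% over the genome, and without A677G replicate 2, 6 were lost in A677G, beside 35.1%. The order against the genome thus turned for both GOF mutants. With either WT library left out, Y641F lost 5 of 15, beside 47.4% and 49.1% over the genome, and A677G lost 3 of 15, beside 34.4% and 36.2%. When a peak had to cover at least 50% of a region, A677G lost 4 of 11, beside 33.5%. With the strongest 26350 peaks of every library, 3 member regions were open in both WT libraries, of which Y641F and A677G lost 0 and H689A/F667I lost 1, beside 11.6%, 6.82% and 6.09% of 21286 such regions of the genome. Of the 4 regions lost in H689A/F667I, 3 lay in *IGF2*, and only the region of *GNAS* at chr20:58888832-58889254 was lost in all 3 mutants.

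Genes with a peak in both WT libraries were also compared between the 4 GOF libraries and the 4 WT and LOF libraries, with all 70 assignments of the libraries in an exact permutation test, two-sided. The smallest p that it can give is 0.0286, and after Benjamini-Hochberg adjustment over 25805 genes no gene passed 0.05, with a smallest adjusted p of 0.136 for the covered length (5441 genes had an unadjusted p under 0.05). The imprinted genes that entered this test were 5 of the 10, *PEG10*, *KCNQ1OT1*, *IGF2*, *MEG3* and *GNAS*. Their median difference in covered length, GOF minus the others on the scale log2(bp + 1000), was −0.30, beside −0.29 over all genes. With the covered length taken as a share of all bp under peaks in the library, on the scale log2(bp per Mb under peaks + 1), the median over all genes was 0.08. The imprinted genes then differed by −0.02 (*IGF2*), 0.09 (*KCNQ1OT1*), −1.47 (*MEG3*), −0.98 (*PEG10*) and −0.61 (*GNAS*). The exact permutation p was 0.429 for *MEG3* (adjusted p = 0.650) and 0.0857 for *PEG10* (adjusted p = 0.312). The *MEG3* value rests on Y641F, which was at 0 in both libraries. A677G had 27.9 and 17.5 bp per Mb there, above WT (12.5 and 13.0) and H689A/F667I (12.1 and 11.8). The smallest adjusted p over all genes was 0.161 at this setting. Differences on this scale cannot be set against those on log2(bp + 1000) in size. All GOF libraries lay below all others for *PEG10* and *GNAS*, 2 of 5 genes, beside 21.1% of all genes. As a share of all peaks this held for 1 of the 5, *GNAS*, beside 3.15% of all genes. With the same number of peaks in every library it held for 0 of the 3 that could then be tested, beside 13.3% of 19636 genes. *PEG10* and *MEG3* were not among these 3. The split over all genes of GOF below against GOF above, 21.1% against 0.00775%, became 3.15% against 11.4% when covered length was taken as that share.

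*PEG10*, a paternally expressed gene derived from a retrotransposon, shares its promoter with the divergent gene *SGCE*, which is also expressed from the paternal copy. One region at chr7:94654833-94656440 covered this promoter, with 3 start sites of *PEG10* inside it and its centre 357 bp from a start site of *SGCE*. It was open in all 8 libraries. The peaks measured 1113 and 1017 bp in WT, 1608 and 996 bp in H689A/F667I, 274 and 639 bp in Y641F, and 205 and 375 bp in A677G. All 4 GOF peaks were narrower than the other 4, and the groups did not overlap. The same held for 2575 of the 18787 regions open in all 8 libraries (13.7%). Per Mb under peaks the groups overlapped, with 28.5 bp in Y641F replicate 2 against 26.2 and 24.6 bp in WT. The difference in covered length was −0.67 on the scale log2(bp + 1000), with an exact permutation p of 0.0286 that became 0.136 after adjustment over all genes.

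The fold of a peak, pileup divided by local background and averaged over the width of the broad peak, went the other way at *PEG10*. It was 3.55 and 3.45 in WT, 3.63 and 3.32 in H689A/F667I, 4.69 and 4.28 in Y641F, and 4.58 and 4.29 in A677G. Every GOF library lay above every other library, with a difference of 0.97 (exact permutation p = 0.0286, adjusted p = 0.245). The −log10 p of the peak was likewise 6.87 and 6.35 in Y641F and 6.76 and 6.52 in A677G, against 5.44 and 5.10 in WT and 4.65 and 4.41 in H689A/F667I. Its difference was 0.37 on the scale log2(value + 1), with an exact permutation p of 0.0286 and an adjusted p of 0.161. Over all genes, the highest fold of all GOF libraries lay above that of all others in 1.1%, and the highest −log10 p in 0.136%.

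Of the 18787 regions open in all 8 libraries, 119 were both narrower and of higher fold in every GOF library, which is 0.633%, and *PEG10* was the 1 such region among the 3 at the imprinted genes. This pairing of measures was chosen after the values of *PEG10* were seen. The GOF peaks did not all lie in the same place. Those of Y641F and of A677G replicate 2 began 383 to 671 bp before the first start site and ended 9 to 123 bp before it, whereas that of A677G replicate 1 lay from 1173 to 969 bp before it and shared no base with them. The −log10 q of the *PEG10* peaks was at most 4.11, so no peak was left at this gene when a −log10 q of at least 5 was required.

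**Figure D3:**
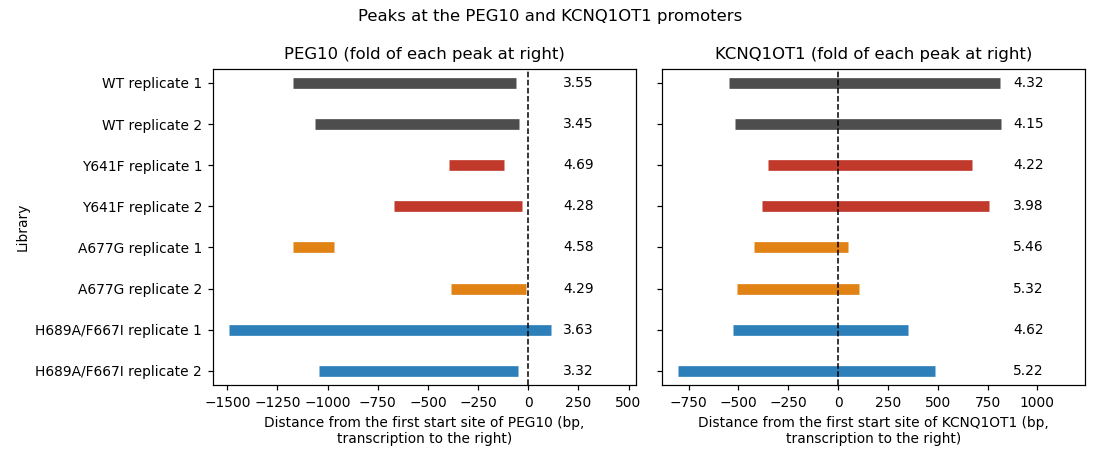
Extent of the peak at *PEG10* (left) and *KCNQ1OT1* (right) in each library, as distance in bp from the first start site with transcription to the right, coloured by line, with the fold of the peak beside each bar. At *PEG10* the 4 GOF bars are shorter than the other 4 and their folds, 4.28 to 4.69, are higher, whereas at *KCNQ1OT1* only the A677G bars (473 and 617 bp) stand apart.

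*KCNQ1OT1* is a paternally expressed antisense lncRNA that starts in an intron of *KCNQ1*, at an imprinting control region, and silences neighbouring genes on the same copy. Its 1 region, chr11:2699183-2700804, held all 6 of its start sites and was open in all 8 libraries. The A677G peaks were the narrowest, with 473 and 617 bp, and those of H689A/F667I (875 and 1289 bp), Y641F (1025 and 1142 bp) and WT (1361 and 1337 bp) were wider. The A677G peaks ended 52 and 107 bp after the first start site, whereas those of WT reached 814 and 820 bp into the transcript and those of Y641F 673 and 757 bp.

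The fold at *KCNQ1OT1* was 5.46 and 5.32 in A677G, 5.22 and 4.62 in H689A/F667I, 4.32 and 4.15 in WT, and 4.22 and 3.98 in Y641F. The −log10 p was 15.7 in both A677G libraries, 14.3 and 12.2 in H689A/F667I, 12.8 and 11.1 in WT, and 9.64 and 9.0 in Y641F. In both measures the A677G libraries were the highest and overlapped no other line, the Y641F libraries lay below all others in −log10 p, and the fold of Y641F overlapped that of WT. The GOF mutants thus lay on opposite sides of WT in −log10 p, and their mean fold against the other 4 libraries differed by 0.17 (exact permutation p = 0.8, adjusted p = 0.896). The covered length differed by −0.30 on the scale log2(bp + 1000), with an exact permutation p of 0.114 and an adjusted p of 0.231. As a share of all peaks it differed by 0.09, in the opposite direction, on the unlike scale log2(bp per Mb under peaks + 1).

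*IGF2*, a paternally expressed fetal growth factor, shares its enhancers and its imprinting control region with *H19*. Of its 4 regions, 3 had one and the same pattern, open in WT replicates 1 and 2, Y641F replicate 2 and A677G replicate 2 and closed in the other 4 libraries. They were chr11:2137304-2138240, which takes in 1 start site and an untranslated exon, and the intronic regions chr11:2151305-2152483 and chr11:2156448-2156784. The fourth, chr11:2150316-2150915, was an intronic peak in WT replicate 1 alone. Covered length was 2780 and 1594 bp in WT, 0 and 1085 bp in Y641F, 0 and 1328 bp in A677G, and 0 in both H689A/F667I libraries. Both GOF lines thus had 1 library with *IGF2* peaks and 1 without.

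The strongest of these regions, chr11:2156448-2156784, had a fold of 3.57 and 3.73 in WT, 3.11 in Y641F replicate 2 and 3.19 in A677G replicate 2, and its peaks were 211 to 284 bp wide. The region with the start site had folds of 2.9 and 3.08 in WT, 2.92 in Y641F replicate 2 and 3.21 in A677G replicate 2. All 3 regions counted as lost in H689A/F667I, whose lists of 47840 and 48755 peaks are longer than those of Y641F replicate 2 (36598) and A677G replicate 2 (46358), in which they were open. Their peaks had a −log10 q of 1.27 to 2.30 in Y641F replicate 2 and 1.88 to 3.44 in A677G replicate 2, where each list starts at 1.00. In WT it was 2.13 to 5.13. Several of these peaks thus lay near the cutoff, and why H689A/F667I had none was not tested. Over the genome, 181 of 48615 regions open in both WT lists (0.372%) had this pattern of 4 open libraries, a count made after the pattern was seen. They were 2.63% of the 6887 regions lost in H689A/F667I. The difference between the GOF libraries and the others was −0.25 on the scale log2(bp + 1000), with an exact permutation p of 0.657 and an adjusted p of 0.710, and it turned to 0.11 without WT replicate 1.

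Between *H19* and *IGF2* the lists gave 5 more regions, outside the windows of both genes. One of them, chr11:2089104-2090244, lies 85.1 kb beyond the first start site of *H19* towards *IGF2*. It was open in 7 libraries and closed in Y641F replicate 1. Its fold was 4.37 and 4.71 in WT, 3.74 in Y641F replicate 2, 4.42 and 4.76 in H689A/F667I, and 4.01 and 3.37 in A677G, so it was open in both H689A/F667I libraries where *IGF2* itself was closed. The other 4 were each open in 1 library. None of the 9 regions of this 173 kb locus was open in all 8 libraries, and Y641F replicate 1 had no peak anywhere in it.

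**Figure D4:**
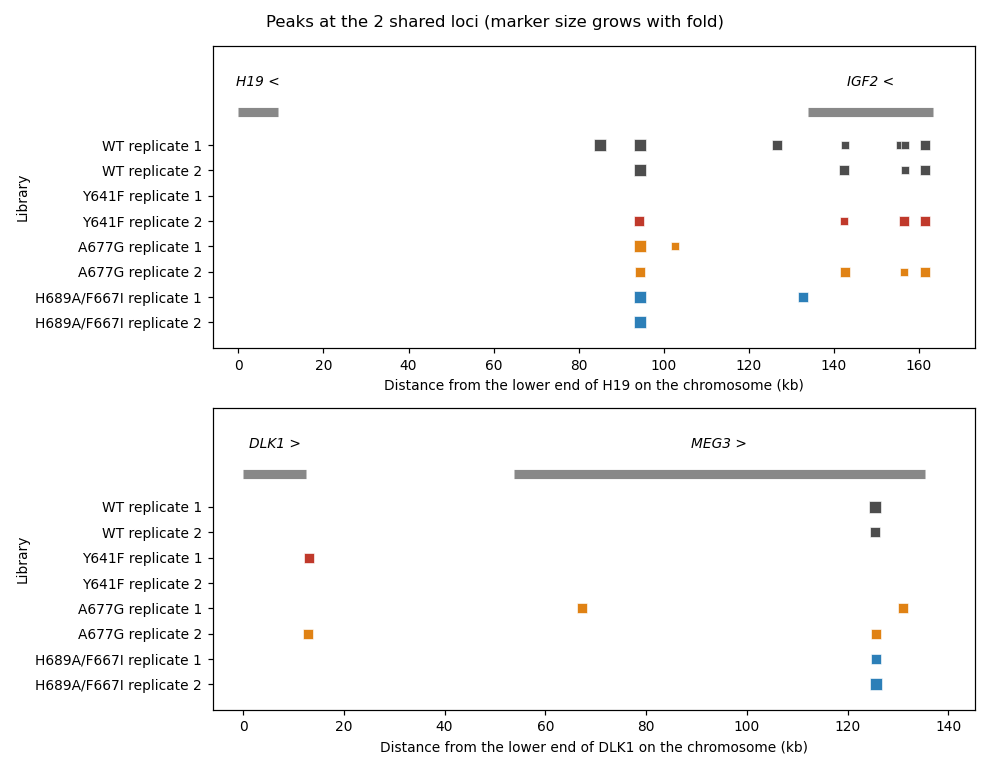
Peaks of each library at the *H19* and *IGF2* locus (top) and the *DLK1* and *MEG3* locus (bottom), as distance in kb from the lower end of *H19* or *DLK1* on the chromosome, with genes as grey bars, the direction of transcription marked by arrowheads, and squares that grow with fold. No square lies over *H19* or *DLK1*, and the 3 regions of *IGF2* open in 4 libraries line up at the right of the top plot.

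*MEG3* is a maternally expressed lncRNA that shares its imprinting control region with *DLK1*. Its region chr14:100850936-100851630, over an exon near the end of the gene, was open in WT replicates 1 and 2, A677G replicate 2 and both H689A/F667I libraries. The fold was 4.45 and 3.87 in WT, 3.67 in A677G replicate 2 and 3.92 and 4.13 in H689A/F667I. Neither Y641F library had a peak anywhere in *MEG3*, so this region was lost in Y641F and retained in H689A/F667I. A677G replicate 1 alone had peaks at chr14:100792854-100793070, in an intron, with a fold of 3.69, and at chr14:100856514-100856923, over an exon, with a fold of 3.21. The highest fold of the gene was below that of all other libraries in all 4 GOF libraries, with a difference of −2.26 (exact permutation p = 0.0286, adjusted p = 0.245), beside 10.6% of all genes. The highest −log10 p was likewise below in all 4, with a difference of −1.48 on the scale log2(value + 1) (exact permutation p = 0.0286, adjusted p = 0.161), beside 17.6% of all genes. Covered length did not separate the groups. It was 531 and 536 bp in WT, 359 and 357 bp in H689A/F667I, 627 and 471 bp in A677G and 0 in both Y641F libraries, so that A677G replicate 1 had the longest cover of any library, and the difference was −0.21 on the scale log2(bp + 1000) (exact permutation p = 0.371, adjusted p = 0.467). The differences in fold and −log10 p rest on the Y641F libraries, which are at 0, and the 3.69 of A677G replicate 1 comes from another place in the gene than the peaks of the other libraries.

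At *DLK1* no peak was listed in the gene body or around its start sites. The nearest peaks lay just past its end, at chr14:100738464-100738675 in A677G replicate 2, with a fold of 3.46, and at chr14:100738728-100739017 in Y641F replicate 1, with a fold of 3.26. None of the 5 regions of the 145 kb locus was open in all 8 libraries, and 4 of them were open in 1 library each.

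*MEST*, a paternally expressed gene for a protein of the hydrolase family, had a single peak, in H689A/F667I replicate 1 at chr7:130489115-130489813. This intronic peak was 699 bp wide, with a fold of 3.12 and a −log10 p of 3.50. H689A/F667I replicate 2 and the 6 other libraries had none, so it counts neither as gained nor as lost.

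*GNAS* encodes the alpha subunit of the stimulatory G protein and has several promoters, whose transcripts are expressed from the maternal copy, the paternal copy or both. It had more regions than any of the other 9 genes, 10 over 71475 bp with 59 annotated start sites. Covered length was 4173 and 4241 bp in WT, 3072 and 3330 bp in H689A/F667I, 2118 and 2240 bp in A677G, and 544 and 1638 bp in Y641F. The 4 lines did not overlap, in the order WT, H689A/F667I, A677G and Y641F. This is also the order of the lines by the number of peaks in their lists. How many other genes have this order was not counted. Per Mb under peaks, the covered length was 98.1 and 102.7 bp in WT, 103.5 and 109.7 bp in H689A/F667I, 94.3 and 83.0 bp in A677G, and 35.9 and 73.1 bp in Y641F, so that H689A/F667I then lay above WT. The difference between the GOF libraries and the others was −0.88 on the scale log2(bp + 1000) (exact permutation p = 0.0286, adjusted p = 0.136). As a share of all peaks it was −0.61 on the unlike scale log2(bp per Mb under peaks + 1) (exact permutation p = 0.0286, adjusted p = 0.196). With the same number of peaks in each library the difference was −0.43, again on the scale log2(bp + 1000). Its exact permutation p was 0.0857 and its adjusted p 0.287, and the groups then overlapped. They also overlapped in the highest fold, with a difference of −0.54 (exact permutation p = 0.2, adjusted p = 0.456), and in the highest −log10 p, with a difference of −0.26 on the scale log2(value + 1) (exact permutation p = 0.2, adjusted p = 0.330).

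One *GNAS* region was open in all 8 libraries, chr20:58850564-58851126, in an intron and 20 bp from a start site of *GNAS-AS1*, an antisense lncRNA expressed from the paternal copy. Its fold was 5.35 and 5.84 in WT, 3.38 and 4.49 in H689A/F667I, 4.30 and 4.12 in A677G, and 3.33 and 4.13 in Y641F. The WT libraries were the highest, and the other 3 lines overlapped each other. The region over the first start sites, chr20:58839399-58840678, was closed only in A677G replicate 1, with folds of 2.86 to 4.21 elsewhere.

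Y641F lost 2 regions of *GNAS*. The intronic region chr20:58869661-58870774, 30499 bp from the first start site, was open in the other 6 libraries, with folds of 4.61 and 4.25 in WT, 4.25 and 4.22 in H689A/F667I and 3.63 and 5.13 in A677G. The region chr20:58888832-58889254, 49324 bp from the first start site, takes in 12 start sites and a non-coding part of an exon, and was open in WT alone. Its folds there, 2.37 and 2.62, were the lowest of any *GNAS* peak, and its −log10 p was 3.33 and 3.96.

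The next promoter regions, chr20:58890364-58891502 with 3 start sites and chr20:58892215-58892773 with 1, were closed only in Y641F replicate 1. At the first of them the fold was 2.97 and 3.15 in WT, 3.70 in Y641F replicate 2, 3.70 and 3.00 in H689A/F667I, and 3.08 and 3.17 in A677G, so that the lines overlapped. At the second the fold was 2.83 and 3.50 in WT, 3.25 in Y641F replicate 2, 3.43 and 3.64 in H689A/F667I, and 3.66 and 2.77 in A677G. The region chr20:58907695-58908130, near the end of the gene, was closed in Y641F replicate 1 and H689A/F667I replicate 2. The other 3 regions of *GNAS* were each open in 1 WT library, with folds of 3.24 to 3.27.

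**Figure D5:**
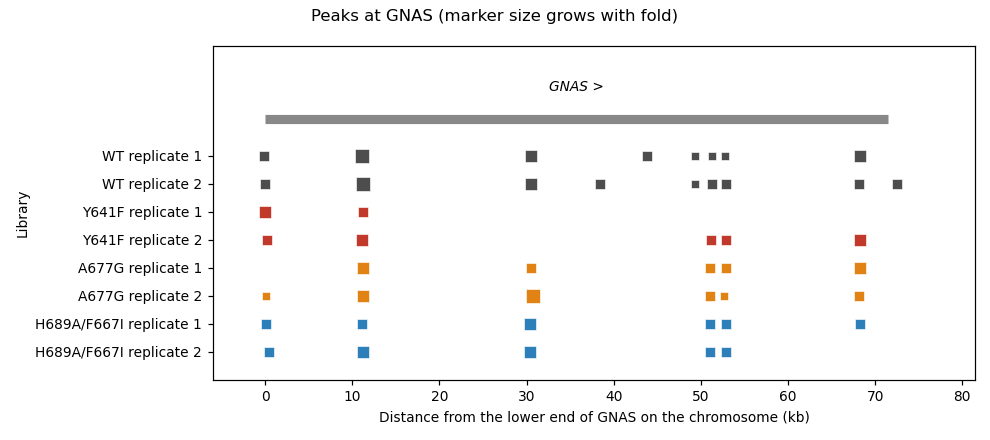
Peaks of each library at *GNAS*, as distance in kb from its lower end on the chromosome, with the gene as a grey bar, transcription to the right, and squares that grow with fold. Y641F replicate 1 keeps only the peaks over the first start sites and beside *GNAS-AS1*, and the small squares near 49 kb are present in WT alone.

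The promoters of other imprinted genes, taken as 1 kb around any start site, were set beside these. Of 35 genes that share no promoter window with the 10, 14 were open in all 8 libraries (40.0%), 12 were closed in all 8 (34.3%) and 9 were open in some. Most of them, 30, are protein-coding, and of these 13 were open in all 8 (43.3%) and 9 closed in all 8 (30.0%), beside 59.2% and 22.3% of all protein-coding genes. Of the 5 lncRNA genes, 1 was open in all 8 and 3 were closed in all 8, beside 20.2% and 63.2% of all lncRNA genes. Among the 18 expressed from the paternal copy, 6 were open in all 8 and 8 closed in all 8, the latter being *NDN*, *NPAP1*, *SNHG14*, *NNAT*, *DIRAS3*, *NAP1L5*, *USP29* and *RTL1*. Among the 17 expressed from the maternal copy, 8 were open in all 8 and 4 closed in all 8, namely *ATP10A*, *MEG8*, *MEG9* and *CPA4*. *NDN*, *NPAP1* and *SNHG14* are neighbours of *SNRPN* in the Prader-Willi locus, *USP29* is a neighbour of *PEG3*, and *RTL1*, *MEG8* and *MEG9* belong to the *DLK1* and *MEG3* locus.

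Of the 35 promoters, 20 were open in both WT libraries. Y641F lost 3 of them, beside 9.02% of 19800 promoters over all genes, A677G lost 2, beside 3.67%, and H689A/F667I lost 2, beside 2.46%. All promoters lost here were of protein-coding genes, with 19 of these open in each WT library, beside shares lost of 6.71%, 2.24% and 1.53% over all protein-coding genes. No promoter was gained, beside 0.0923%, 0.208% and 0.381% of the 17331 promoters closed in both WT libraries. *MKRN3*, a paternally expressed gene of the Prader-Willi locus, and *KCNQ1*, a potassium channel gene, had a promoter peak in both WT libraries and in no mutant library. *MKRN3* had a fold of 4.06 and 3.61 in WT, and *KCNQ1* had 3.19 and 3.61 in peaks of 360 and 245 bp. *PHLDA2*, a maternally expressed gene that limits placental growth, was lost in Y641F alone, with folds of 2.24 and 2.22 in WT and 2.26 to 2.42 in A677G and H689A/F667I.

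Of the genes that share a promoter window with one of the 10, *SGCE* and *GNAS-AS1* were open in all 8 libraries and *SNURF*, *ZIM2*, *MIMT1* and *MESTIT1* were closed in all 8. Among 9 genes for factors that keep imprints, 6 had a promoter open in all 8 libraries. *ZFP57*, whose product binds methylated imprinting control regions, and *DPPA3*, which protects them in the early embryo, were closed in all 8. *YY1* was closed only in Y641F replicate 2, with a fold of 3.33 in Y641F replicate 1 and 2.99 to 3.63 in the other libraries, so none of the 9 was lost or gained in a mutant.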

How the data were processed

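ATAC-Seq peak lists of 8 HEK293T libraries (4 lines, 2 libraries each) were analysed. The authors trimmed reads with Trim Galore 0.6.5, aligned them to GRCh38/hg38 with BWA 0.7.17, dropped duplicates with Samtools, and used MACS2 2.2.7.1 for peak calling. Each deposited list belongs to 1 library and gives its broad peaks with a fold (ratio of pileup to local background), a −log10 p and a −log10 q, each a mean over the peak as MACS2 writes it. The deposited score was not used. A marker gene and a stretch of sequence are not reported here. The shift for Tn5, mitochondrial reads and depth are not given in the sources used here, and without counts no count test was run. Peak numbering was unbroken in every list, and no peak ran past the end of its hg38 chromosome. Chromosomes 1 to 22 and X were used, which left out 12 to 15 peaks per library on chromosome Y. The lowest −log10 q of a list was 1.00 in each library.

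Groups came from the sample titles. Genes and start sites came from GENCODE 44, and sequences from hg38. Width was the length of a peak, covered length the bases of a gene's window under peaks, and the highest fold and −log10 p were set to 0 where no peak was listed. Differences between 4 GOF and 4 other libraries were tested by an exact two-sided permutation test and adjusted by the Benjamini-Hochberg method over all genes with a peak in both WT libraries, with a pseudocount of 1000 bp for covered length and 1 for −log10 p. As a share of all peaks, covered length was taken in bp per Mb under peaks with a pseudocount of 1. All 10 genes were named, with the strongest, lost, gained and start-site regions of each. Genes of the other lists were named where their promoter was closed in all 8 libraries or lost or gained. The *IGF2* pattern and the width and fold pairing at *PEG10* were counted after the values were seen. The genes and lists were chosen with earlier results of these data known. As alternatives, peaks were limited to a −log10 q of 5 or more or to the 26350 strongest of each library. Others were a cover of at least 50%, 1 kb windows, start sites without gene bodies, merging of peaks under 1 kb apart, scaling by all bp under peaks, a replicate block, and each library left out. The scripts were tested on simulated data. Python 3.11.15, NumPy 2.4.6 and pandas 2.3.3 were used.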

Additional observations from a re-analysis of the deposited data

Results flagged for a closer look

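A few values lay far from the others of their group of 4 libraries by Dixon's test, which chance alone flags in about 1 group of 20. The number of groups screened is not stated, so the flags cannot be weighed against that rate. Among the WT and LOF libraries, the covered length of *KCNQ1OT1* in H689A/F667I replicate 1 was 875 bp, below the other 3. The only peak at *MEST*, in the same library, stood apart by its covered length of 699 bp, its fold of 3.12 and its −log10 p of 3.50. The other libraries of its group had no peak there, and the test flags any such lone peak whatever its size. The rate given above therefore does not apply to *MEST*, and its flags all stem from the same peak. Among the GOF libraries, the highest fold at *GNAS* was 5.13 in A677G replicate 2, above the other 3.

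In 3 cases WT lay between the mutants, with 1 mutant above it and another below it in each library. These differences between mutants were not tested. At *KCNQ1OT1* the mean −log10 p of Y641F minus that of A677G was −6.38. At *PEG10* the mean −log10 p exceeded that of H689A/F667I by 2.08 in Y641F and by 2.11 in A677G.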

How the results depend on the processing

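Of the 299 values recomputed under the alternatives, 265 kept their direction and their side of the threshold (for counts, stayed within 1.5 times). The rest were 19 counts that moved and 15 differences that turned sign. No difference passed the threshold for adjusted p at any setting, so for differences only the direction was informative. The lowest adjusted p, by the exact permutation test, was 0.126, for covered length of *PEG10* and *GNAS* without A677G replicate 2. Requiring a −log10 q of 5 or more, each mutant lost 1 of 2 regions. Over the genome Y641F then lost 44.8%, A677G 29.1% and H689A/F667I 20.6%. With equal numbers of peaks, both GOF mutants lost 0 of 3 regions and H689A/F667I lost 1, beside 11.6%, 6.82% and 6.09%. Y641F then gained 1, for which no genome share was computed. With at least 50% of a region covered, Y641F lost 5 of 11, beside 49.2%, and A677G lost 4, beside 33.5%. Genes with all GOF libraries below all others numbered 0 of 2 tested at that −log10 q, beside 18.4% of all genes. They numbered 0 of 3 with equal numbers of peaks, beside 13.3%, and 1 of 5 as a share of all peaks, beside 3.15%. The difference in covered length of *KCNQ1OT1* turned to 0.0909 as a share of all peaks, on the scale log2(bp per Mb under peaks + 1). The cause was not tested. *PEG10* and *MEG3* could not be tested with a −log10 q of at least 5, where they have no peak, nor with the same number of peaks. *IGF2* could not be tested at that −log10 q either. Merging peaks bears on regions only.

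Leaving out 1 library at a time, lost regions ranged from 3 to 9 in Y641F, 1 to 6 in A677G and 4 to 6 in H689A/F667I. The highest counts in the GOF mutants came without replicate 2 of Y641F (9 of 13, beside 54.8% over the genome) and of A677G (6 of 13, beside 35.1%). Either WT library left out gave 5 of 15 in Y641F and 3 of 15 in A677G, with the genome shares given above. In H689A/F667I it gave 6 of 15, beside 27.6% and 29.6%. Gained regions ranged from 0 to 2 in A677G (2 without replicate 2) and 0 to 1 in H689A/F667I (1 without replicate 2). No genome share of gained regions was computed with a library left out, so these counts cannot be weighed against the genome. Genes with all GOF libraries below ranged from 2 to 3 of 5. The count of 3 came without H689A/F667I replicate 1, beside 34.5% of all genes. Differences at *IGF2* ranged from −0.53 to 0.11 in covered length, −0.85 to 0.39 in fold and −0.72 to 0.31 in −log10 p, turning sign without WT replicate 1 and, in fold and −log10 p, without WT replicate 2, Y641F replicate 1 or A677G replicate 1. At *KCNQ1OT1* they ranged from −0.0733 to 0.422 in fold and −0.163 to 0.0846 in −log10 p, turning without either A677G library in fold and without either Y641F library or H689A/F667I replicate 2 in −log10 p.

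With the replicate block (36 assignments, smallest p 0.0556), the difference in covered length of *PEG10* stayed at −0.67 with an adjusted p of 0.185. No call could change here, since that smallest p already lies above the threshold. Libraries of the same number did not deviate together (correlations of −0.0039 to 0.0556 over 6 pairs of lines), so the numbers were not taken as pairs. Unknown depth and the low significance of most peaks at these genes limit what an absent peak can show.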
